A study of Mus musculus with 6 samples.

Results

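Ripply2, Tbx6 and Pcdh8 are genes of the presomitic mesoderm (PSM), the unsegmented tissue beside the neural tube from which somites bud off, and all are used where the next somite boundary forms. They are 3 of 10290 genes with a probe set of their own in the array table. Every probe set of that table that was annotated to exactly 1 of these symbols was taken, which gave 4 of 19606 probe sets, 1 for Ripply2, 1 for Tbx6 and 2 for Pcdh8. The 3 genes were chosen from the difference between mutant and control arrays described here, so that difference is given as a description, with no p-value, and nothing rests on it. All 4 probe sets passed the filter on dim signals, which kept 11731 probe sets. The filter used the mean over all arrays, mutant and control together (geometric mean of 349 or more).

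Anterior PSM of mouse embryos at embryonic day 8.75 was measured on 6 Affymetrix arrays, each with RNA pooled from 3 PSMs. Mutant pools (n = 3) were R26R AC/AC;T-Cre and control pools (n = 3) were R26R AC/AC, on a strain background that the labels write as C57BL6/6J. Both genotypes carry the AC allele at the ROSA26 locus, and mutants also carry T-Cre, in which Cre recombinase is driven by the promoter of the T gene (Brachyury), used by cells of the primitive streak and by the mesoderm that leaves it. From knowledge of the study, AC is A-CREB, a dominant-negative inhibitor of CREB family transcription factors that Cre switches on. No pool carried T-Cre without AC, so Cre and AC cannot be told apart. The labels call the pools biological replicates and do not say whether litters were shared.

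In mouse PSM, Tbx6, a T-box transcription factor, acts together with Notch signalling to switch on Mesp2 in the band of cells that will form the next boundary. Mesp2 in turn switches on Ripply2, whose protein recruits Groucho (Tle) co-repressors to T-box factors and leads to the loss of Tbx6 protein, so that the anterior edge of Tbx6 marks where the boundary will lie. Pcdh8, also called PAPC, is a protocadherin of the anterior PSM and forming somite that depends on Mesp2 in mouse and takes part in the cell adhesion changes at the boundary.

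The 250 bases before each annotated start site are shown because all 3 genes were lower in mutant, the difference they were chosen on. A further reason is that T-box, Notch and CREB family proteins recognise short motifs. The sequences are from RefSeq on GRCm38.p6, 5′ to 3′ along the gene. Ripply2 lies on the plus strand (chr9:87015287-87015536), Tbx6 on the plus strand (chr7:126781233-126781482) and Pcdh8 on the minus strand (chr14:79771313-79771562). Capitals mark a T-box core or a TATA box.
Ripply2: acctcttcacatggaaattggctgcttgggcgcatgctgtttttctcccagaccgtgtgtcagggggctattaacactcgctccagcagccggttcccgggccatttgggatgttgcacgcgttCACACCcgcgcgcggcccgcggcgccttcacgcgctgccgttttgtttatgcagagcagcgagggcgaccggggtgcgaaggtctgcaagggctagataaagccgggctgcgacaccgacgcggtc
Tbx6: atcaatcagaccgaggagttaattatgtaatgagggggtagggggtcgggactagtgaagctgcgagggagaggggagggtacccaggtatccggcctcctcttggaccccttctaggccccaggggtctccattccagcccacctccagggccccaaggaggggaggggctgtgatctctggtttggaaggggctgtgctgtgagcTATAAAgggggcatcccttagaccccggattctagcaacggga
Pcdh8: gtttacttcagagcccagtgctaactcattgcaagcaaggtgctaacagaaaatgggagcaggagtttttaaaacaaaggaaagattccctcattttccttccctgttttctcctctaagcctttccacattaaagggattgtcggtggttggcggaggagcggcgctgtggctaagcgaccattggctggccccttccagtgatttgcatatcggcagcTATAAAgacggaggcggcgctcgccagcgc

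The motifs were chosen with these sequences in view and searched on both strands. The Ripply2 window held 1 T-box core (GGTGTG, here as CACACC at −126 to −121 from the start), which 16.3% of 32851 promoter windows of this length hold. The Tbx6 and Pcdh8 windows held none, and no window of the 3 genes held the alternative T-box core AGGTGT (11.8% of all windows), which shares 5 letters with the other core and can overlap it. A TATA box (TATAAA, 12.4% of all windows) stood at −43 to −38 in Tbx6 and at −30 to −25 in Pcdh8, and none in Ripply2. The E-box CANNTG, the kind of site that Mesp2 and other basic helix-loop-helix factors bind, matched at 2 places in Ripply2 and at none in Tbx6 or Pcdh8 (66.2% of all windows). Neither the half-site of the cAMP response element (CRE) that CREB binds (TGACG, 17.8%), nor its palindrome TGACGTCA (1.55%), which contains the half-site, nor the core TGGGAA (21.6%) of the Notch partner RBPJ was found in any of the 3 windows. GC content was 62.8% for Ripply2, 59.6% for Tbx6 and 51.2% for Pcdh8, against a median of 52.4% over all windows.

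Ripply2, Pcdh8 and Tbx6 all had lower signal in each mutant pool than in any control pool. Ripply2 signal in mutant pools was 34.0% of that in control pools, the 2 Pcdh8 probe sets were at 38.3% and 41.0%, and Tbx6 was at 58.9% (ratios of geometric means, n = 3 pools per genotype). Of all tested probe sets, 10.5% had the 3 mutant values below the 3 control values. In bulk tissue, fewer cells with a transcript and less of it per cell cannot be told apart.

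Ripply2, the repressor partner of Tbx6, had signals of 409.8, 347 and 332 in mutant pools 1, 2 and 3, against 1021, 1194 and 995 in control pools 1, 2 and 3. The mutant values sat close together and far below the controls, with a gap of 585 signal units between the highest mutant and the lowest control. The mean was 363 ± 41.2 in mutant and 1069.9 ± 108 in control (SD, n = 3 each). Its log2 difference, mutant minus control, was −1.56 (SE 0.14), a 2.95-fold lower signal. On the log2 scale its spread was alike in both genotypes, with an SD of 0.16 in mutant and 0.14 in control, near the middle of all tested probe sets. By size of fall Ripply2 ranked 1 of 7245 genes when each gene was represented by its brightest tested probe set. It ranked 2 of 11731 tested probe sets and 3 of all 19551 without array controls. The genes were chosen on this difference, so the ranks only describe it. Mutant pools 2 and 3 lay below the filter cut of 349, which Ripply2 passed on its mean over all arrays.

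Pcdh8, the adhesion molecule of the group, had 2 probe sets. The first, 1417051_at, read 712, 376 and 739.6 in mutant pools 1, 2 and 3, against 1286, 1882 and 1460.1 in control pools. The genotypes did not overlap, and mutant pool 2 lay far below the other mutant pools. Means were 609 ± 202 in mutant and 1543 ± 307 in control (SD, n = 3 each), and the log2 difference was −1.38 (SE 0.26). The second, 1447825_x_at, is of a type that can bind related transcripts as well. It read 1039, 426 and 844 in mutant pools and 1668, 2104 and 1548 in control pools, again with no overlap and with mutant pool 2 lowest. Means were 769.8 ± 313 in mutant and 1773 ± 293 in control (SD, n = 3 each), with a log2 difference of −1.29 (SE 0.29). The 2 probe sets ran close to each other over the arrays, with a root mean square distance of 0.16 log2 units between their centred profiles.

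Tbx6, the transcription factor at the head of the group, had signals of 297, 275 and 412 in mutant pools 1, 2 and 3, against 501, 607 and 541 in control pools. The genotypes did not overlap, but mutant pool 3 came within 89.2 signal units of the lowest control. The mean was 328 ± 73.9 in mutant and 549.8 ± 53.0 in control (SD, n = 3 each), and the log2 difference was −0.76 (SE 0.18). Mutant pools 1 and 2 lay below the filter cut of 349, which Tbx6 passed on its mean over all arrays. By size of fall Tbx6 ranked 54 of 7245 genes, 73 of 11731 tested probe sets and 140 of all 19551 without array controls. Without mutant pool 3 the difference was −0.94, and without mutant pool 2 it was −0.65.

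**Figure D1:**
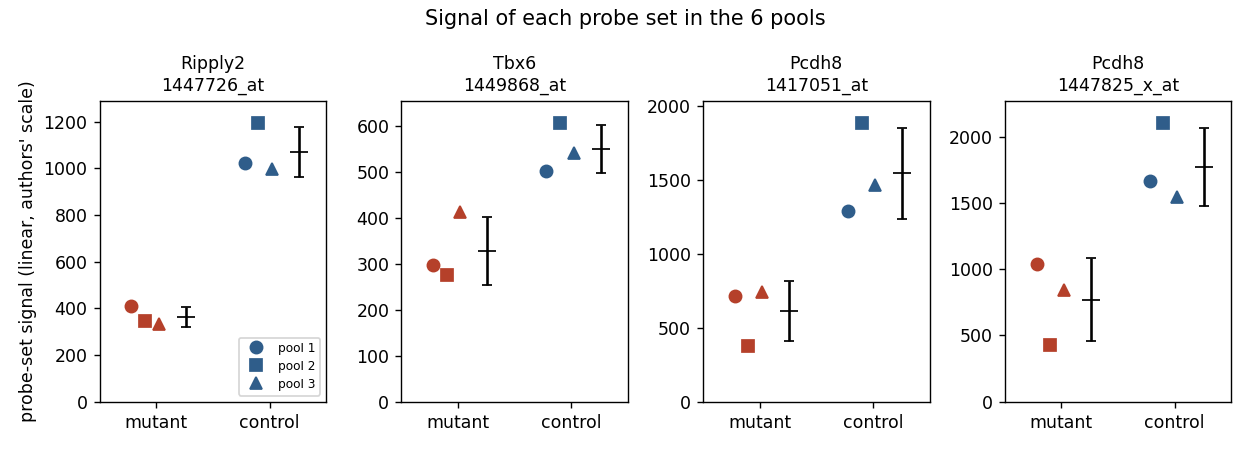
Signal of the 4 probe sets (vertical axis, linear, on the authors' scale, from 0) in 3 mutant pools (left, red) and 3 control pools (right, blue), with the mean and SD over pools in black and a symbol for each pool number. In every panel the 3 mutant pools lie below the 3 control pools, with the widest gap in signal for Ripply2 (585) and the narrowest for Tbx6 (89.2).

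The genes differed in how the mutant pools spread. Ripply2 was at 38.5%, 32.6% and 31.2% of the control geometric mean in mutant pools 1, 2 and 3, a narrow band. Tbx6 was at 54.2% and 50.2% in mutant pools 1 and 2 and at 75.3% in mutant pool 3. Mutant pool 3 thus had the highest Tbx6 signal and the lowest Ripply2 signal of the mutant pools. Pcdh8 was at 46.8%, 24.7% and 48.6% by the first probe set and at 59.1%, 24.3% and 48.0% by the second, so that mutant pool 2 stood lowest in both. The log2 SD among mutant pools was 0.55 and 0.67 for the Pcdh8 probe sets, against 0.28 and 0.23 among control pools. Of all tested probe sets, 98.8% and 99.4% had a smaller SD among mutant pools than these. For Tbx6 the SD was 0.31 among mutant pools and 0.14 among control pools, and 90.1% of tested probe sets had a smaller mutant SD. Within arrays, the log2 signal of Ripply2 minus that of Tbx6 was 0.80 lower in mutant, with no overlap of genotypes, while Ripply2 minus Pcdh8 was 0.17 or 0.27 lower, depending on the probe set, with overlap. Those are descriptions of the size of each fall, which the choice of the genes used.

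**Figure D2:**
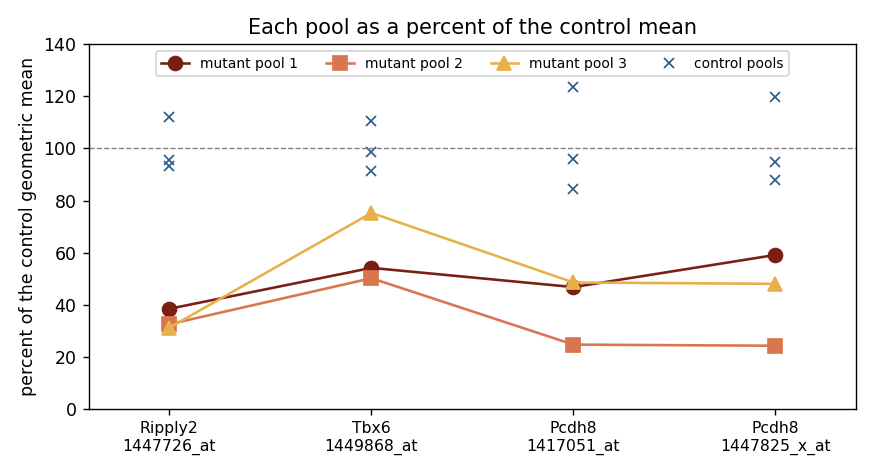
Signal of each probe set as a percent of the control geometric mean (vertical axis, 0 to 140) in mutant pools 1, 2 and 3 (lines) and in the control pools (crosses), with a dashed line at 100. Ripply2 stays between 31.2% and 38.5% in mutant pools, Tbx6 reaches 75.3% in mutant pool 3, and both Pcdh8 probe sets are lowest in mutant pool 2.

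The arrays fell into sets by the 3′ to 5′ signal ratio of the dap spike-in transcript, which was 23.8, 19.6 and 22.9 in mutant 1, mutant 2 and control 1 and 10.2, 12.2 and 11.1 in mutant 3, control 2 and control 3. Median signal per array was 491 to 535. Within the high-ratio set the log2 difference was −1.43 for Ripply2, −0.81 for Tbx6 and −1.31 and −1.32 for Pcdh8. Within the low-ratio set it was −1.71 for Ripply2, −0.47 for Tbx6 and −1.16 and −1.10 for Pcdh8. Each probe set was lower in mutant in both sets, which rest on 1 pool of one genotype and 2 of the other. As the genotypes did not overlap in any of the probe sets, any split of the arrays had to give that sign.

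Some partners of the 3 genes were in the table but under the filter, or not analysed here. Mesp2, the factor between Tbx6 and Ripply2, read 136, 116 and 183 in mutant pools and 189, 219.5 and 173 in control pools, and the genotypes overlapped. Lfng, a modifier of Notch that cycles in the PSM, read 133, 113 and 227 in mutant pools and 223, 246 and 238 in control pools, also with overlap, because mutant pool 3 lay among the controls. Mesp1, the paralogue of Mesp2, read 190.1, 123 and 179.8 in mutant pools and 160.0, 190.0 and 166 in control pools. Ripply3, a paralogue of Ripply2 with a role in pharyngeal development, read 226, 229.7 and 204 in mutant pools and 153, 218 and 152 in control pools, with overlap. Cer1, a secreted inhibitor of Nodal and BMP signals and a marker of the nascent anterior half-somite, read 104, 118 and 215 in mutant pools and 225, 274 and 184 in control pools. Ripply1, Msgn1, T and Uncx were not analysed here.

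The network around the 3 genes was described through 7 lists of genes: Ripply paralogues and Groucho co-repressors, the Notch pathway and segmentation clock, boundary and polarity genes, protocadherins, the T-box family, genes of the formed somite, and genes of the posterior PSM and tail bud. Without the 3 genes themselves, 74 of its 111 genes were in the table and 62 were tested. Of these 62, limma called 1 lower and 1 higher in mutant at a Benjamini-Hochberg adjusted p under 0.05 over 7245 genes, against 1.10% of all tested genes called lower and 0.594% called higher. The median log2 difference of the network was −0.19, with 49 of 62 values negative, and that of all tested genes was −0.01, with 3794 of 7245 negative. In 9 of the 62 genes the 3 mutant values lay below the 3 control values, as they did in 11.5% of all tested genes. At an unadjusted p under 0.05 there were 19 of 62 network genes and 1089 of all genes.

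The network gene that was called lower was Dkk1, a secreted inhibitor of Wnt signalling made in the PSM and tail bud. It read 566, 601 and 804 in mutant pools and 997, 1221 and 1232 in control pools, and all mutant pools lay below the controls. Its log2 difference was −0.82 (SE 0.16, limma adjusted p = 0.0357). The call was lost without mutant 1 (adjusted p = 0.172), mutant 2 (0.164), control 2 (0.107) or control 3 (0.133), and with p adjusted over all probe sets (0.0707). The gene called higher was Pax3, a paired-box factor of dorsal cells in the somite and neural tube, with 773, 642 and 667 in mutant pools and 312, 365 and 407 in control pools (log2 difference 0.94, SE 0.15, limma adjusted p = 0.0145). Its call was lost without mutant 1 (0.0941) or mutant 2 (0.0635), and with a filter at the 60th percentile it was not among the tested genes. With the dap ratio set as a term in the model, 6 network genes were called lower, the Notch genes Dll1, Dll3 and Rbpj and the posterior genes Dkk1, Cdx4 and Lef1, while the same model called 3.73% of all tested genes lower (270 of 7245). Within the high-ratio arrays 41 of the 62 values were negative (median −0.20), and within the low-ratio arrays 40 were (median −0.08).

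Among genes that act with Tbx6 and upstream of Mesp2, the Notch ligand Dll1, a reported target of Tbx6 in mouse, read 1743, 1590.5 and 2844 in mutant pools and 3089, 3497 and 3267 in control pools. The genotypes did not overlap, and mutant pool 3 was the highest mutant pool, as it was for Tbx6. Mutant pool 3 was also the only mutant array of the low-ratio set. Within the high-ratio set the log2 difference of Dll1 was −0.89, and within the low-ratio set it was −0.25. Over all arrays the log2 difference of Dll1 was −0.72 (SE 0.19, limma adjusted p = 0.0937), short of the threshold. Rbpj, the DNA-binding partner of Notch, had −0.37 (SE 0.11, limma adjusted p = 0.130), and Dll3, a ligand that inhibits Notch within the cell, had −0.67 (SE 0.22, limma adjusted p = 0.176). Hes7, the clock repressor and another reported target of Tbx6, read 773, 882 and 988 in mutant pools and 1067, 1036 and 1032 in control pools, with no overlap (log2 difference −0.25, SE 0.13, limma adjusted p = 0.394). Limma called 0 of the 16 tested Notch and clock genes in either direction, and 3 had an unadjusted p under 0.05. The list's median was −0.16, with 11 values negative.

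Among genes of the boundary itself and of somite polarity, limma called 0 of 13, with 3 at an unadjusted p under 0.05, a median of −0.18 and 10 negative values. Epha4, an Eph receptor that Mesp2 switches on at the boundary, read 1218, 1387 and 1501 in mutant pools and 1880 (control 1), 1592 and 1765 in control pools, with no overlap (log2 difference −0.35, SE 0.12, limma adjusted p = 0.208). Foxc2 and Foxc1, forkhead factors needed for segmentation, had −0.75 (SE 0.31, limma adjusted p = 0.274) and −0.48 (SE 0.21, limma adjusted p = 0.315), and both were lowest in mutant pool 2. Efnb2, the ephrin partner of Epha4, had 0.05 (SE 0.12, limma adjusted p = 0.905).

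Of the other protocadherins, limma called 0 of 3 tested, with 2 at an unadjusted p under 0.05 and all 3 negative. Pcdh19 had −0.48 (SE 0.16, limma adjusted p = 0.186), Pcdh18 had −0.37 (SE 0.15, limma adjusted p = 0.280) and Pcdh7 had −0.10 (SE 0.24, limma adjusted p = 0.891). Cdh2, or N-cadherin, whose uptake into the cell Pcdh8 is reported to promote in PSM, had −0.19 (SE 0.11, limma adjusted p = 0.452). The Groucho co-repressors Tle4, Tle3 and Tle1, which Ripply proteins recruit, had −0.42, −0.15 and 0.04 (limma adjusted p = 0.229, 0.545 and 0.930), with 0 of 3 called and 1 at an unadjusted p under 0.05. In the T-box family limma called 0 of 2 tested, Tbx3 with −0.54 (SE 0.19, limma adjusted p = 0.210) and Mga with −0.10 (SE 0.14, limma adjusted p = 0.807), and 1 had an unadjusted p under 0.05.

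The tissue on either side of the boundary was looked at through the last lists, since the dissection took the anterior PSM and left out the somites and the posterior PSM. Of 5 tested genes of the formed somite, Pax3 was called higher and the other 4 were not called. The epithelial somite factors Tcf15 and Meox1 had −0.11 (SE 0.22, limma adjusted p = 0.868) and −0.04 (SE 0.15, limma adjusted p = 0.930), and Aldh1a2, which makes retinoic acid, had 0.44 (SE 0.16, limma adjusted p = 0.214). The somite genes had a median of 0.40 in the high-ratio set and of −0.16 in the low-ratio set. Of 20 tested posterior genes, Dkk1 was called lower and 19 were not called, with a median of −0.25 and 18 negative values over all arrays. Within the high-ratio arrays 15 were negative (median −0.46), and within the low-ratio arrays 10 were negative and 10 positive (median 0.02). The Wnt effector Lef1 had −0.46 (SE 0.13, limma adjusted p = 0.114) and the tail bud homeobox gene Cdx4 −0.44 (SE 0.14, limma adjusted p = 0.172). The summed signal of the posterior genes was 37276 to 49251 in mutant and 47856 to 52376 in control, and that of the somite genes was 2963 to 3931 in mutant and 2462 to 3145 in control, and both overlapped between genotypes.

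**Figure D3:**
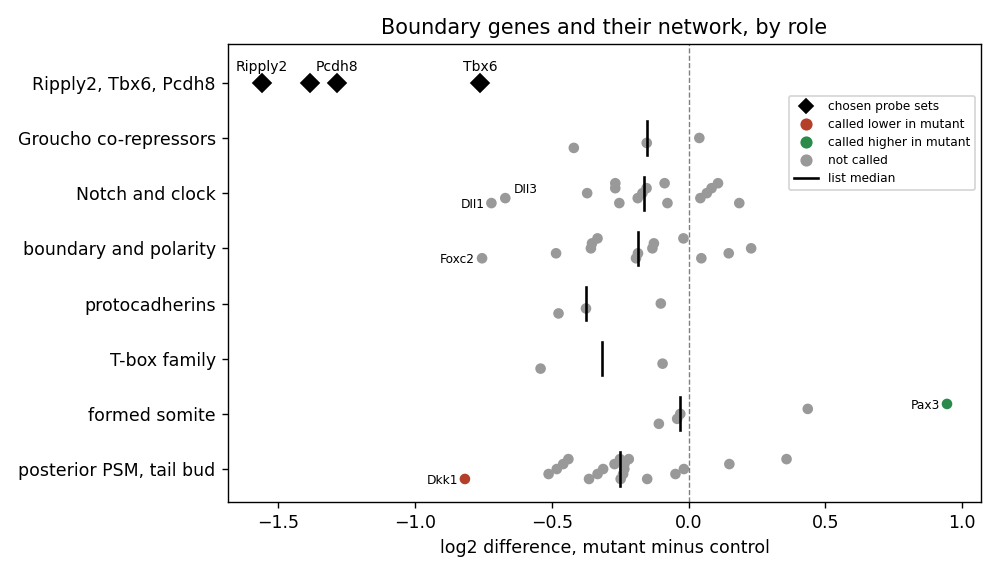
Log2 difference, mutant minus control (horizontal axis), of the 4 chosen probe sets (black diamonds, top row) and of the 62 tested network genes by role (a point each), with genes called by limma in colour, the rest in grey and list medians as bars. The Ripply2 and Pcdh8 probe sets lie left of all network genes, Tbx6 lies to the right of Dkk1, and Dkk1 and Pax3 are the coloured points. Unlike the network genes, the top row was chosen on this difference, so its position only describes that choice.

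Of the markers of 7 neighbouring tissues, those of 4 had summed signals that did not overlap between genotypes. The sums were lower in mutant for lateral and intermediate mesoderm and for endothelium, and higher for surface ectoderm and blood. Of single tested genes, 11.5% had the 3 mutant values below the 3 control values, and 705 of 7245 had them above. The share for sums was not computed, and a sum follows its brightest genes most. Limma called 1.10% of all tested genes lower and 0.594% higher. Of 5 tested markers of lateral and intermediate mesoderm limma called 3 lower, and their summed signal was 3201 to 3851 in mutant and 6068 to 6344 in control. Prrx1, a homeobox gene of lateral mesoderm, had −1.32 (limma adjusted p = 0.00178) and Hand2, needed for heart and limb mesoderm, −0.95 (limma adjusted p = 0.0130). Of 4 endothelial markers 1 was called lower, the VEGF receptor gene Kdr (−0.82, limma adjusted p = 0.0154), with sums of 1354 to 1848 in mutant and 1984 to 2456 in control. Fli1 had −0.77 (limma adjusted p = 0.0604), while Tek and Cdh5 had −0.10 and −0.06 (limma adjusted p = 0.859 and 0.931). Of 6 surface ectoderm markers 3 were called higher, among them Epcam (0.60, limma adjusted p = 0.0196) and Krt19 (1.12, limma adjusted p = 0.0240), with sums of 21544 to 23323 in mutant and 14660 to 16130 in control. The 3 tested blood markers were globin genes such as Hbb-bh1 (0.50, limma adjusted p = 0.0671) and Hbb-y (0.48, limma adjusted p = 0.189). Their sums were 42610 to 59846 in mutant and 30279 to 42557 in control. Limma called none of them, with 2 at an unadjusted p under 0.05. Within the high-ratio and low-ratio arrays the list medians were 0.96 and 0.01 for blood and −0.04 and −0.65 for endothelium. They were −0.89 and −0.78 for lateral and intermediate mesoderm, and 0.73 and 0.58 for surface ectoderm.

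Of 8 gut endoderm markers 7 had positive values, with a median of 0.49 over all 8. Limma called none of the 7, among them the tight junction gene Cldn7 (0.50, limma adjusted p = 0.152). The only negative one, Sox17, which endothelium also uses, was called lower (−1.06, limma adjusted p = 0.0250). Sox17 was also 1 of the 4 markers of the 8 with an unadjusted p under 0.05. Sox2, of the neural tube, had 0.23 (limma adjusted p = 0.526) and Foxa2, of the notochord and floor plate, 0.37 (limma adjusted p = 0.452). In the neural tube and notochord lists limma called 0 of 3 each, with 0 at an unadjusted p under 0.05, and the sums of all of gut, neural tube and notochord overlapped between genotypes. The gut sum was 29730, 13850 and 11353 in mutant pools 1, 2 and 3, against 12783, 7897 and 9859 in control pools. No probe set in the table read 0, the lowest signal being 12.7. What part any of these tissues had in the values of Ripply2, Tbx6 and Pcdh8 was not tested.

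**Figure D4:**
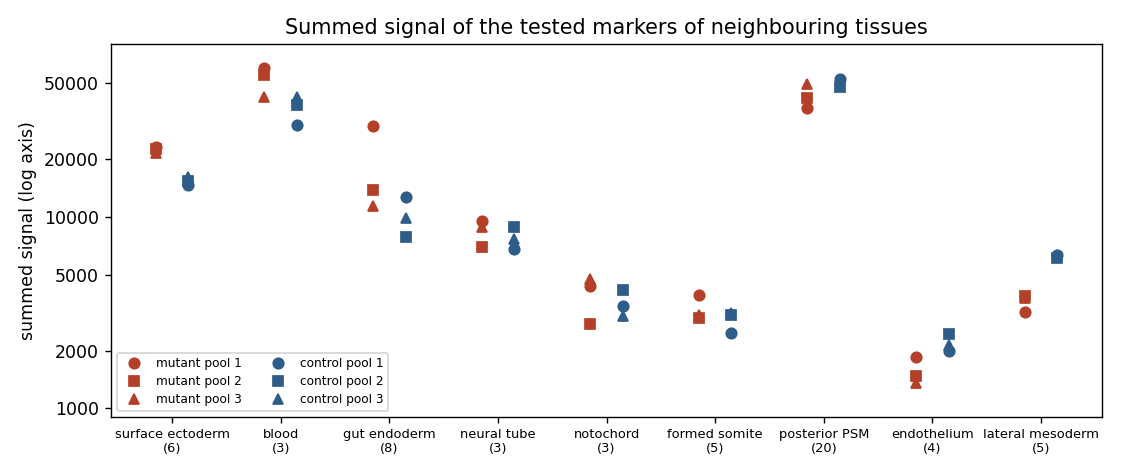
Summed signal (vertical axis, log scale) of the tested markers of each tissue, with the number of genes in brackets, in 3 mutant pools (left, red) and 3 control pools (right, blue) and a symbol for each pool number. Mutant pools lie above control pools for surface ectoderm and blood and below them for endothelium and lateral mesoderm, and the genotypes overlap in the other lists.

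The genes whose profile over the 6 arrays was most like each of the 3 were found by the root mean square distance between centred log2 profiles, which follows the genotype difference as well as the spread among pools. Clone and provisional symbols (such as those with Rik, Gm or LOC) and the 3 chosen genes were left out of this search. For Tbx6, Olfm1, a secreted glycoprotein gene, was the nearest of the other tested genes, at 0.02 log2 units. Olfm1 read 363, 329.9 and 499 in mutant pools and 607, 742 and 682 in control pools, so that mutant pool 3 was again the highest of its genotype. After it came Zdhhc3, a palmitoyltransferase (0.04), Ddx51, an RNA helicase (0.07), Smpd4, a sphingomyelinase (0.08), and Dll1 (0.09). For Ripply2 the nearest were Cyp51, an enzyme of cholesterol synthesis (0.20), Dgcr6 (0.22), Prrx1 (0.25), the ribosomal protein gene Rps27 (0.27) and Dgkk, a diacylglycerol kinase (0.28). For the brighter Pcdh8 probe set they were Sox17 (0.24), Tysnd1, a peroxisomal protease (0.34), Pik3r4, a regulatory subunit of the Vps34 lipid kinase (0.34), the apelin receptor gene Aplnr (0.36) and Foxc2 (0.36). Ripply2 and the first Pcdh8 probe set lay 0.33 log2 units apart by this measure, Tbx6 and that probe set 0.40, and Ripply2 and Tbx6 0.47.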

How the data were processed

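Gene expression was measured in 6 pools, 3 mutant and 3 control. The authors deposited linear intensity values, summarised per probe set and scaled across arrays. Affymetrix Expression Console and MAS5 are named, per the submitters' processing notes, while versions, scaling target and the choice of probe sets are not given in the sources used here. That scaling was kept. Symbols came from the platform annotation (17348 probe sets with 1 symbol, 0 replaced after a match by Entrez ID to RefSeq).

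Values were log2 of signal plus 1. Probe sets below the 40th percentile of mean log2 signal (geometric mean 349) were left out. Mutant minus control differences came from limma 3.58.1 in R 4.3.3, with an intensity trend and a two-sided moderated test. The 3 chosen genes were fitted over 11731 probe sets and list genes over 7245 genes (brightest tested probe set), with Benjamini-Hochberg adjustment over all genes, after testing on simulated data. Standard errors (SE) are the moderated ones, and the number of arrays limits precision. P-values measure only the spread between these pools.

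The genes, the lists and the split of arrays by dap ratio were chosen with earlier results of these data known. Named network genes were those called and those with the smallest p in each list, with an added list of reported Tbx6 targets in mouse (Dll1, Hes7, Mesp2 and Msgn1). Efnb2, Cdh2, Meox1, Mesp1, Lfng and Cer1 were named after their values were seen. Equal replicate numbers were not treated as pairs: residual correlations were 0.20, −0.45 and 0.37. Alternatives covered scaling, offset, filter, trend, blocks, probe set choice, threshold and leaving out each array. Values of the lists within each set of arrays were added after seeing the data.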

Additional observations from a re-analysis of the deposited data

How the results depend on the processing

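All 56 alternative values of the 4 chosen probe sets (14 settings each: scaling, offsets, blocks, the sets of arrays and leaving out each array) kept a lower signal in mutant. The genotypes did not overlap in any of these probe sets. Offsets, blocks, sets of arrays and leaving out an array therefore could not turn the sign, so it is no check. Of the 56 values, 54 moved by less than 1 SD of the replicates (pooled over genotypes, log2). The other 2 were those within the low-ratio arrays of Ripply2 (−1.71, against −1.56 over all arrays, SD 0.15) and of Tbx6 (−0.47, against −0.76, SD 0.24). Leaving out 1 array gave −1.65 to −1.48 for Ripply2, −0.94 to −0.65 for Tbx6, and −1.56 to −1.07 and −1.55 to −0.91 for Pcdh8, whose smallest falls came without mutant 2. The counts moved more. Without 1 array, 0 to 5 network genes were called lower and 0 to 1 higher, and 13 to 140 of all genes lower and 7 to 88 higher. With the replicate block, 2 network genes were lower (Dll1 and Dkk1) and 74 of all genes higher, and it changed none of the other counts by over 1.5 times. With the dap ratio as a block, 6 network genes were lower, and 270 of all genes lower and 202 higher. At an adjusted p under 0.1 the counts were 2, 170 and 100. Without a filter, 72 of all genes were higher. With a filter at the 60th percentile, 0 network genes were higher, and 51 of all genes lower and 23 higher. At the probe-set level, 0 network genes were lower (limma, adjusted p of Dkk1 0.0707) and 52 of all probe sets. Quantile normalization and median centring left the median of all genes at −0.01 and −0.04. The precision of every value is that of 3 arrays per genotype.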
